A study of Arabidopsis thaliana with 9 samples.

Results

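Ribonucleotide reductase and the replication clamp PCNA were followed in leaves of Arabidopsis thaliana plants mutant for 2 histone methyltransferase genes, ATXR5 and ATXR6. The genes were taken from the table by locus identifier, as a functional group: RNR1 (AT2G21790), RNR2A (AT3G23580), TSO2 (AT3G27060), PCNA1 (AT1G07370) and PCNA2 (AT2G29570), which are 5 of the 27655 genes in the expression table. The study compared 3 genotypes with 3 RNA-seq libraries each, and its stated question was what sets the more strongly affected mutant apart from the milder one. The first mutant, called hyp/c-1, was homozygous for an atxr5 allele and held atxr6hyp opposite atxr6c-1, 1 copy each. The second mutant, called hyp/hyp, was homozygous for both atxr5 and atxr6hyp. Both mutants therefore share the atxr5 background, and the reference was wild type (WT), titled Col. All libraries came from leaves of plants aged 3 weeks, kept at 22 °C under days with 16 h of light and 8 h of darkness. The labels do not say what kind of lesion each allele is, and they do not say whether the libraries of a genotype came from separate plants. The p-values below therefore measure the spread between these libraries, which may be technical in part.

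Ribonucleotide reductase converts ribonucleotides into the deoxyribonucleotides (dNTPs) from which DNA is made. The enzyme joins a large catalytic subunit, encoded by RNR1 in Arabidopsis, to a small subunit that carries the radical cofactor, encoded by TSO2, RNR2A or RNR2B. PCNA is a ring-shaped clamp that slides on DNA behind the replication fork, holds the DNA polymerases in place and recruits many other proteins, and Arabidopsis makes it from PCNA1 and PCNA2. ATXR5 and ATXR6 bind PCNA and place a single methyl group on lysine 27 of histone H3, so clamp and methyltransferases meet on replicating DNA. In plants both gene families are known for high expression in dividing cells, and TSO2 is also known to respond to DNA damage.

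The sequences next to these genes are shown because the members differed in response, and because 3 kinds of short motif are known from promoters of replication and damage genes. The motifs searched, on both strands, were the E2F motif of S-phase genes (TTTCCCGC, TTTGGCGC, TTTCGCGC or TTTGCCGC), the site II motif bound by TCP factors (TGGGCC or TGGGCT), and the motif of the damage-response factor SOG1 (CTT and AAG with any 7 bases between). Sequences were read from the RefSeq assembly TAIR10.1 and run 5′ to 3′ along the gene's strand, in lower case with motif matches in capitals. The upstream windows of TSO2 (chr3:9981621-9981870, minus strand), which holds none of the motifs, and RNR1 (chr2:9293011-9293260, plus strand), which holds 3 site II matches, were as follows.
TSO2: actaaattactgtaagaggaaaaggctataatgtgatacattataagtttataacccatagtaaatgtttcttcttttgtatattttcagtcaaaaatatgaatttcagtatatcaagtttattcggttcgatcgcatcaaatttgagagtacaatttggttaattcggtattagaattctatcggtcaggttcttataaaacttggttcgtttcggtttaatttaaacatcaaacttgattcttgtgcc
RNR1: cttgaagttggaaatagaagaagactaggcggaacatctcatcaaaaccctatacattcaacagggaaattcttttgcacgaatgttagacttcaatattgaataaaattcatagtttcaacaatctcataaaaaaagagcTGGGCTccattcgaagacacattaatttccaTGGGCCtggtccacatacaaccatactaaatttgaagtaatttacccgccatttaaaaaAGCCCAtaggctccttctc

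In the 250 bases before the annotated start, an E2F match occurred in 1.41%, a site II match in 19.2% and a SOG1 match in 9.71% of 27443 gene windows. Among the members, RNR1 had 3 site II matches and PCNA2 had 2, and no other match was found in that window. Both PCNA2 matches lie inside the neighbouring gene MAC5B, beyond the 72 bases between these genes. Because annotated starts can lie far from the coding region, the 500 bases before the start codon were searched as well, a window added after the first had been read. Over that window the shares among all genes were 2.95% for E2F, 24.8% for site II and 20.3% for SOG1. TSO2 then had 1 E2F match, 473 bases before the start codon (chr3:9981523-9981530), 1 site II match, 498 bases before it (chr3:9981550-9981555), and 1 SOG1 match (chr3:9981287-9981299), all inside the annotated transcript, whose start lies 563 bases before the start codon. RNR1 had, besides its 3 site II matches, 1 E2F match, 258 bases before the start codon (chr2:9293271-9293278), and 1 SOG1 match (chr2:9293255-9293267), which did not overlap each other. These sites are shown with up to 8 flanking bases for the E2F matches.
TSO2 E2F match: aaacacatTTTGGCGCgtgtaaca
RNR1 E2F match: agaagctgGCGGGAAAatcccaaa
TSO2 SOG1 match: CTTcctcaacAAG
RNR1 SOG1 match: CTTctcctagAAG
RNR2A and PCNA1 had no match in either window, and PCNA2 kept its 2 site II matches. The 250 bases before the annotated start of RNR2A lie inside the neighbouring gene AT3G23570. For PCNA1, only the nearest 113 of those bases lie outside the neighbouring gene MAC5A. A match is a run of letters, not a shown binding site, and its absence says only that these letters are not in the window.

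**Figure D1:**
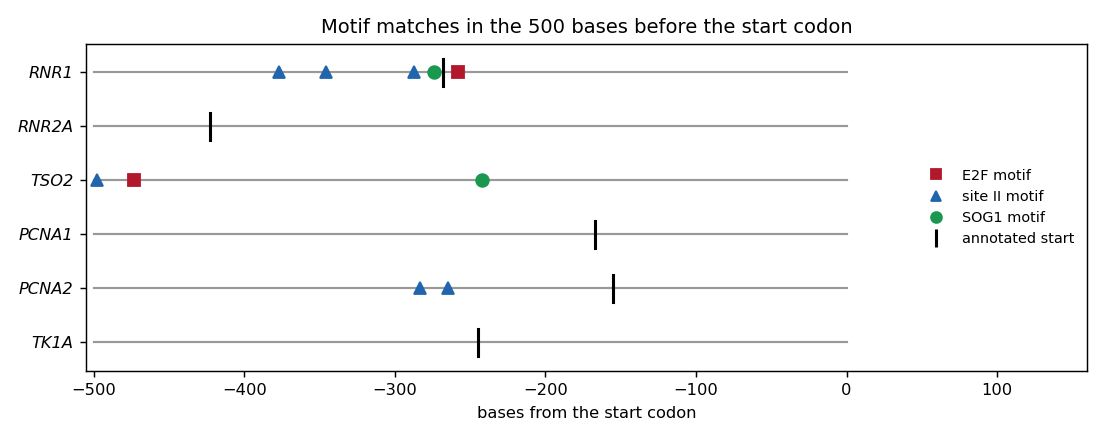
Positions of motif matches in the 500 bases before the start codon of the 5 genes and of TK1A, a thymidine kinase gene described further on; the x axis gives bases from the start codon, symbols mark motif kinds, and black bars mark the annotated transcript start where it lies inside the window. E2F and SOG1 matches appear for RNR1 and TSO2, and TSO2 has no bar because its annotated start lies 563 bases before the start codon. TK1A, RNR2A and PCNA1 have no match of any kind.

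The PCNA genes lie head to head with a pair of related genes, MAC5A and MAC5B, on the opposite strand. Only 113 bases separate PCNA1 from MAC5A (chr1:2262924-2263036), and 72 bases separate PCNA2 from MAC5B (chr2:12651754-12651825). These short shared stretches are shown along the strand of the PCNA gene, and neither holds a motif match.
PCNA1: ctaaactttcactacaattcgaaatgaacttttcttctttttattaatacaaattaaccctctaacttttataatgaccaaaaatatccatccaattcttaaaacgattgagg
PCNA2: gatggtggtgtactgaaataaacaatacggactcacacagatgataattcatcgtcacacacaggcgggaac
MAC5A and MAC5B, like the PCNA genes, did not pass the test in any comparison: the limma log2 difference of MAC5A from WT was 0.07 in hyp/c-1 and 0.01 in hyp/hyp (adjusted p = 0.593 and 0.939), and that of MAC5B was 0.11 and 0.12 (adjusted p = 0.515 and 0.450).

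The deposited values are TPM, an expression unit that scales reads by gene length, here the whole span with introns, and by the library total. Reads recovered from them came to between 21289647 reads in hyp/hyp replicate 2 and 38766556 reads in hyp/c-1 replicate 1. Differences were tested on the log2(TPM + 1) scale with limma over all 17682 genes that averaged at least 1 TPM, and a gene passed at a Benjamini-Hochberg adjusted p-value under 0.05. All 5 members were among the genes tested. A principal component holding 46.4% of the variance set WT apart from both mutants, and the next, with 30.5%, separated the mutants from each other, with hyp/c-1 at 7.27, 17.9 and 41.4 and hyp/hyp at −2.74, −14.4 and −39.5, and so also spread the libraries of each mutant. Both mutated genes were lower in every mutant library than in any WT library, and the libraries of the mutants overlapped each other. ATXR5 averaged 1.64 ± 0.0885 TPM in hyp/c-1, 1.83 ± 0.297 TPM in hyp/hyp and 4.28 ± 0.0811 TPM in WT (SD, n = 3 each). ATXR6 had 0 to 2 reads, 0 to 3 reads and 40 to 41 reads in the libraries of the same genotypes.

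Of the 5 members, only TSO2 passed the test in hyp/hyp against WT, higher in the mutant. Among all genes tested in that comparison, 11.5% passed higher and 9.3% passed lower. That split, 2033 genes higher and 1645 lower, was 1749 and 2338 after quantile normalization. In hyp/c-1 against WT, TSO2 and RNR2A passed, both higher, where the background was 11.2% of genes higher and 9.21% lower. With an added minimum of a 2-fold difference on the log2(TPM + 1) scale, TSO2 alone among the members passed in both comparisons, and the share of all genes that passed higher was 2.61% in hyp/c-1 and 2.36% in hyp/hyp. Between the mutants no member passed, against 1.92% of genes higher and 0.922% lower in hyp/c-1. That split, 339 genes higher and 163 lower, turned round without hyp/c-1 replicate 1 (1113 and 1750) and without hyp/hyp replicate 1 (463 and 521). There, RNR1 and RNR2A were under 0.05 in limma before adjustment, as were 4435 of all genes. Over all genes tested, the median log2 difference from WT was −0.02 for hyp/c-1 and 0.06 for hyp/hyp, and hyp/c-1 minus hyp/hyp gave −0.06. The comparisons with WT share the WT libraries and are not independent of each other.

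**Figure D2:**
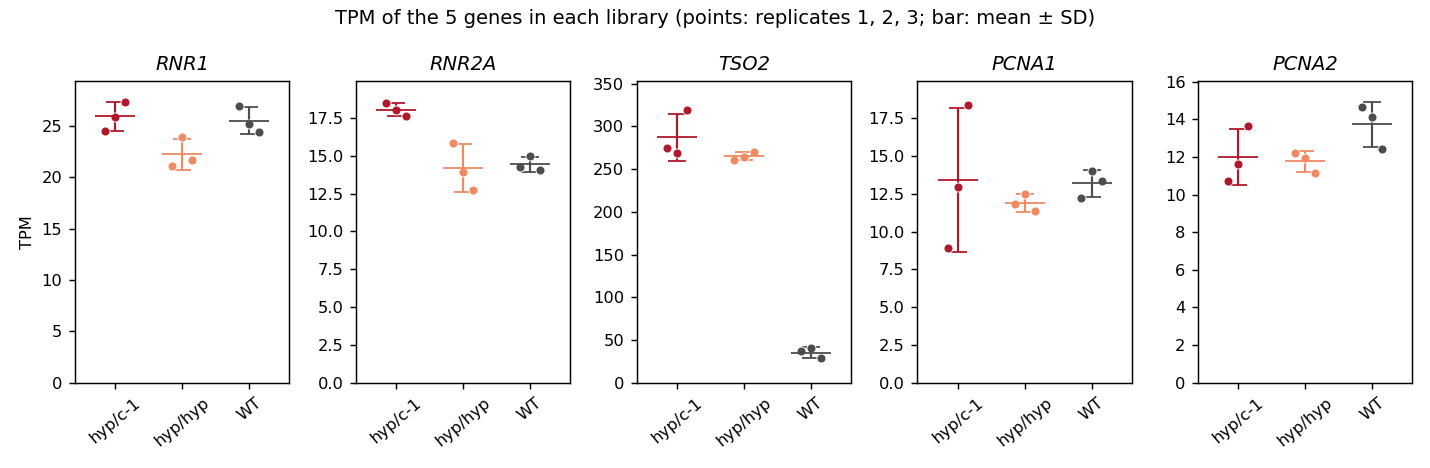
TPM of each gene in every library, with points for the 3 libraries of hyp/c-1, hyp/hyp and WT from left to right and bars for the mean and SD; each panel has its own y axis, starting at 0. TSO2 lies at 261 to 319 TPM in the mutant libraries and at 28.8 to 40.6 TPM in WT, while the other genes differ far less between genotypes.

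TSO2 encodes a small subunit of ribonucleotide reductase and lies at chr3:9979841-9981620 on the minus strand, with 2 exons. It stood at 275, 268 and 319 TPM in the hyp/c-1 libraries, 261, 264 and 270 TPM in the hyp/hyp libraries and 36.6, 40.6 and 28.8 TPM in the WT libraries. Every mutant library was far above every WT library, and the libraries of the mutants overlapped each other. The means were 287 ± 27.4 TPM in hyp/c-1, 265 ± 4.67 TPM in hyp/hyp and 35.3 ± 6.02 TPM in WT (SD, n = 3 each), which is 8.14-fold and 7.50-fold the WT mean. The log2 difference from WT was 3.00 in hyp/c-1 (95% interval 2.73 to 3.27, limma adjusted p = 2.52e-07) and 2.89 in hyp/hyp (2.62 to 3.16, adjusted p = 3.49e-07), with a standard error of 0.121 for each. Ranked by log2 difference from the highest, TSO2 was number 22 of 17682 genes in hyp/c-1 and number 25 in hyp/hyp. Between the mutants its log2 difference was 0.11 with an interval of −0.16 to 0.38 (limma adjusted p = 0.577). These values rest on 6567 to 8899 reads in hyp/c-1, 4739 to 6498 reads in hyp/hyp and 716 to 1073 reads in WT libraries. The neighbour AT3G27050, on the same strand with an overlap of 3 bases, averaged 26.2 TPM in hyp/c-1, 21.6 TPM in hyp/hyp and 25.8 TPM in WT, and did not pass in either comparison with WT.

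RNR1 encodes the large subunit and lies at chr2:9293261-9297861 on the plus strand, with 17 exons. Its TPM was 24.5, 25.9 and 27.4 in hyp/c-1, 21.1, 24.0 and 21.7 in hyp/hyp and 27.0, 25.1 and 24.4 in WT. The hyp/hyp libraries were the lowest, without overlap with the other genotypes, whereas hyp/c-1 and WT overlapped. The margin was narrow, since the highest hyp/hyp library stood close below the lowest WT library. Means were 25.9 ± 1.45 TPM in hyp/c-1, 22.2 ± 1.51 TPM in hyp/hyp and 25.5 ± 1.32 TPM in WT (SD, n = 3 each). The log2 difference from WT was −0.19 in hyp/hyp (SE 0.0835, interval −0.376 to −0.0033, limma adjusted p = 0.135). Its limma p before adjustment was 0.0468, in a comparison where 6282 of all genes tested were under 0.05. For hyp/c-1 the difference from WT was 0.02 (interval −0.16 to 0.21, limma adjusted p = 0.884). Neither passed the test, and both intervals lay far below the difference of TSO2. Between the mutants, hyp/c-1 minus hyp/hyp gave 0.21 (0.03 to 0.40, limma adjusted p = 0.156).

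RNR2A encodes the other measured small subunit and lies at chr3:8459838-8462815 on the plus strand, with 9 exons. In hyp/c-1 it stood at 18.5, 18.0 and 17.6 TPM, in hyp/hyp at 15.9, 13.9 and 12.7 TPM and in WT at 14.3, 15.0 and 14.0 TPM. All hyp/c-1 libraries were above all libraries of the other genotypes, and hyp/hyp overlapped WT. The mean was 18.1 ± 0.438 TPM in hyp/c-1, 14.2 ± 1.59 TPM in hyp/hyp and 14.4 ± 0.490 TPM in WT (SD, n = 3 each), so hyp/c-1 was 1.25-fold the WT level. The log2 difference of hyp/c-1 from WT was 0.30 (SE 0.0899, interval 0.10 to 0.51) with a limma adjusted p of 0.0388, close to the threshold. That call was lost after quantile normalization (adjusted p = 0.0636 in limma) and with a block for replicate number. It was also lost when any 1 library of hyp/c-1 or WT, or hyp/hyp replicate 2, was left out. Over all alternatives the log2 difference stayed between 0.29 and 0.33, with limma adjusted p from 0.0267 to 0.121. In hyp/hyp the difference from WT was −0.03 (interval −0.23 to 0.17, limma adjusted p = 0.843). Between the mutants it was 0.33 (interval 0.13 to 0.53, limma adjusted p = 0.0715), and without hyp/hyp replicate 1 it was 0.41 and passed (adjusted p = 0.0410). The gene overlaps AT3G23570, on the opposite strand, by 153 bases, and the treatment of strand in the counting is not given in the sources used here. AT3G23570 also passed higher in hyp/c-1 against WT, at 60.0 ± 9.19 TPM against 44.9 ± 3.08 TPM (SD, n = 3 each; log2 difference 0.40, limma adjusted p = 0.0299), and its part in the RNR2A value was not tested.

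**Figure D3:**
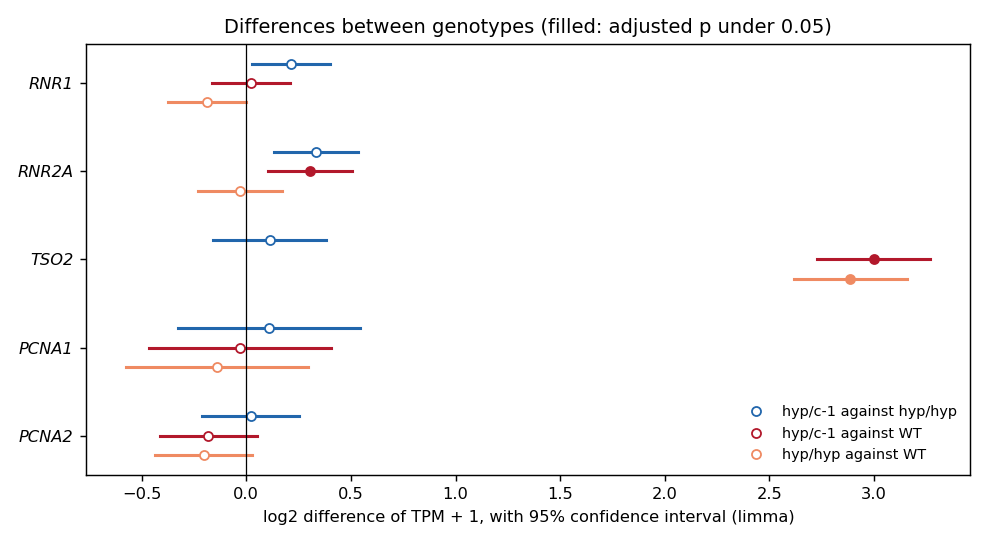
Log2 difference of each gene on the log2(TPM + 1) scale, with 95% intervals from limma, for hyp/c-1 against hyp/hyp, hyp/c-1 against WT and hyp/hyp against WT; the vertical line marks 0, and filled points passed the test. TSO2 lies at 3.00 and 2.89 against WT, and the other 4 genes reach at most 0.33 in every comparison.

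PCNA1 encodes PCNA and lies at chr1:2263037-2264553 on the plus strand, with 4 exons. Its TPM was 8.91, 12.9 and 18.4 in hyp/c-1, 11.8, 12.5 and 11.3 in hyp/hyp and 12.2, 14.0 and 13.3 in WT. The hyp/c-1 libraries held both the lowest and the highest value of the 9, and all 3 genotypes overlapped. The mean was 13.4 ± 4.74 TPM in hyp/c-1, 11.9 ± 0.578 TPM in hyp/hyp and 13.2 ± 0.908 TPM in WT (SD, n = 3 each). The log2 difference from WT was −0.03 in hyp/c-1 (interval −0.46 to 0.40, limma adjusted p = 0.939) and −0.14 in hyp/hyp (−0.57 to 0.30, adjusted p = 0.644). The interval is wider than for any other member. Other sums differed among the hyp/c-1 libraries in the same order: the 8 leaf mesophyll genes summed to 61900, 70000 and 78500 TPM in hyp/c-1 replicates 1, 2 and 3, and the 10 origin licensing genes to 41.6, 46.8 and 54.3 TPM. Their part in the PCNA1 values was not tested. In whole leaves, fewer cells of a type and less RNA per cell cannot be told apart.

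PCNA2 encodes the second copy of the clamp and lies at chr2:12649906-12651753 on the minus strand, with 4 exons. The hyp/c-1 libraries stood at 10.7, 11.6 and 13.7 TPM, the hyp/hyp libraries at 12.2, 12.0 and 11.2 TPM and the WT libraries at 14.7, 14.1 and 12.4 TPM. The hyp/hyp libraries were all below the WT libraries, by little, and hyp/c-1 overlapped both. Means were 12.0 ± 1.50 TPM in hyp/c-1, 11.8 ± 0.553 TPM in hyp/hyp and 13.7 ± 1.18 TPM in WT (SD, n = 3 each). The log2 difference from WT was −0.18 in hyp/c-1 (interval −0.41 to 0.05, limma adjusted p = 0.258) and −0.20 in hyp/hyp (−0.44 to 0.03, adjusted p = 0.191). Between the mutants it was 0.02 (−0.21 to 0.25, limma adjusted p = 0.914). The coding sequences of PCNA1 and PCNA2 were identical at 85.6% of aligned bases. No run of 50 bases within an exon of any member occurred elsewhere in the genome, so exact reads of that length within an exon can be placed. Reads across exon junctions or with mismatches, and the placing of reads in these libraries, were not tested. PCNA2 overlaps the opposite-strand gene ENOC by 279 bases, and ENOC did not pass in any comparison.

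Levels were set side by side between genes per length of exon, as recovered reads per kb of exon, scaled to the library total (RPKM over exons). On that scale TSO2 led in both mutants, at 145 ± 16.6 in hyp/c-1 and 132 ± 0.437 in hyp/hyp, whereas in WT it stood at 17.8 ± 3.11 beside RNR1 at 18.7 ± 1.05, with overlapping libraries (SD, n = 3 each). Below them the order was the same in all 3 genotypes. RNR1 stood at 19.1 in hyp/c-1 and 16.2 in hyp/hyp, and RNR2A at 15.3, 11.9 and 12.2 in hyp/c-1, hyp/hyp and WT. PCNA2 followed at 9.02, 8.73 and 10.3, and PCNA1 came last at 8.67, 7.56 and 8.46 in the same genotypes. Neighbours in that order had separate libraries, except PCNA2 and PCNA1 in hyp/c-1 and RNR1 and TSO2 in WT. The order assumes that reads were counted over exons, which the sources used here do not say. Gene span was 1.76 times the exon length for RNR2A, 1.56 for PCNA2, 1.53 for RNR1, 1.34 for PCNA1 and 1.05 for TSO2. The ratios between genes given next rest on the same assumption. 

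The ratio of TSO2 to RNR2A compares the mRNA of the measured small subunits, without RNR2B, which is not in the expression table. TSO2 exceeded RNR2A by 8.86, 8.90 and 10.8 times in the hyp/c-1 libraries, 9.80, 11.3 and 12.7 times in hyp/hyp and 1.53, 1.62 and 1.22 times in WT, per kb of exon. Mutant and WT libraries did not overlap, and the mean ratio was 9.51 ± 1.10, 11.3 ± 1.43 and 1.46 ± 0.207 in hyp/c-1, hyp/hyp and WT (SD, n = 3 each). Small subunits together, TSO2 plus RNR2A, stood to RNR1 at 8.40 ± 0.437 in hyp/c-1, 8.93 ± 0.606 in hyp/hyp and 1.60 ± 0.169 in WT, again without overlap between mutants and WT. For both ratios the two-sided exact permutation test of each mutant against WT gave p = 0.1, the smallest that 3 against 3 libraries allow. Between the mutants the exact p was 0.2 for TSO2 to RNR2A and 0.3 for small to large subunits. The ratio of PCNA1 to PCNA2 was 0.941 ± 0.221 in hyp/c-1, 0.867 ± 0.0330 in hyp/hyp and 0.830 ± 0.105 in WT, and the libraries of all genotypes overlapped (exact permutation p = 0.5 for hyp/c-1 and 0.8 for hyp/hyp against WT).

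**Figure D4:**
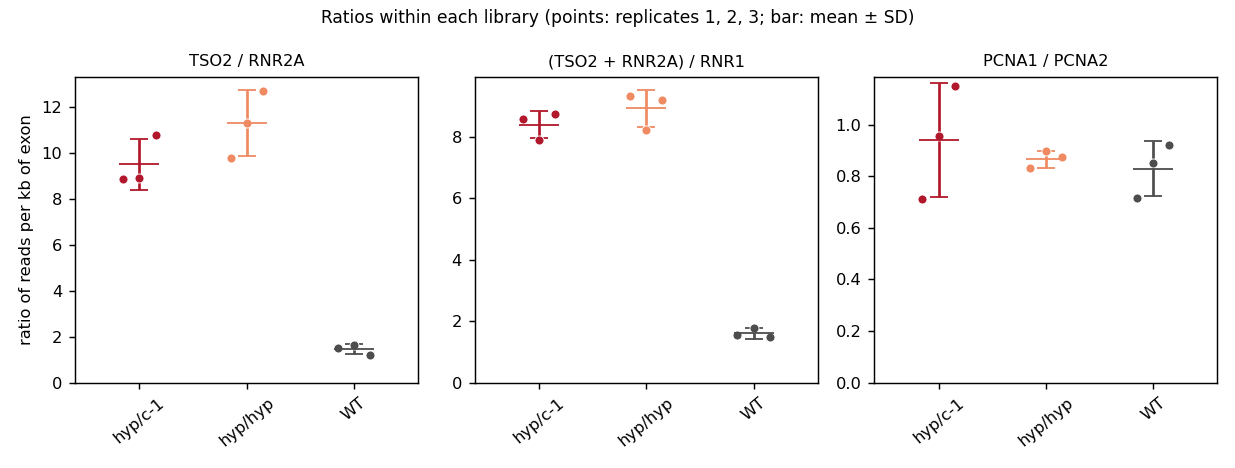
Ratios of reads per kb of exon in every library, with points for libraries and bars for mean and SD in hyp/c-1, hyp/hyp and WT from left to right; y axes start at 0. The ratios of TSO2 to RNR2A and of small to large subunits stand at 7.91 to 12.7 in mutant libraries and 1.22 to 1.79 in WT, and PCNA1 to PCNA2 overlaps.

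Genes around the members were read from lists, described here by counts, each to be set against the background shares given above. Of the other dNTP supply genes, 9 of the 10 in the table were tested, and 2 passed higher and 1 lower in each mutant against WT, with a list median log2 difference of −0.16 in hyp/c-1 and −0.05 in hyp/hyp. TK1A, a thymidine kinase that salvages thymidine for dNTP synthesis, had 161, 157 and 134 TPM in the hyp/c-1 libraries, 158, 144 and 149 TPM in the hyp/hyp libraries and 24.4, 26.4 and 22.9 TPM in the WT libraries. Mutant and WT libraries of TK1A did not overlap, and its mean was 6.15-fold the WT mean in hyp/c-1 and 6.13-fold in hyp/hyp (limma adjusted p = 1.00e-07 and 9.98e-08). The second thymidine kinase, TK1B, passed lower in hyp/hyp (log2 difference −0.43, limma adjusted p = 0.0239). The count of lower genes in hyp/c-1 was 0 without WT replicate 2 or 3 and 2 without hyp/c-1 replicate 1, and in hyp/hyp it was 0 without hyp/hyp replicate 2 or WT replicate 2 and 2 without hyp/c-1 replicate 1 or 3. RNR2B was on the list, but its locus is not in the expression table, so it has no value here.

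Of the 8 genes on a list of clamp loaders and unloaders, 2 passed higher in each mutant, 1 passed lower in hyp/c-1 and none passed lower in hyp/hyp, although 2 did there after quantile normalization; the list medians were −0.01 and −0.02. One of them, RAD17, which loads a clamp other than PCNA at damaged DNA, averaged 14.9 ± 1.52 TPM in hyp/c-1, 13.4 ± 0.444 TPM in hyp/hyp and 4.02 ± 0.266 TPM in WT (SD, n = 3 each; limma adjusted p = 2.99e-06 and 6.42e-06 against WT). Of the genes whose proteins act on PCNA itself, RFC1, the large subunit of its loader, was the one that passed higher, with log2 differences of 0.55 in hyp/c-1 and 0.65 in hyp/hyp (limma adjusted p = 0.00309 and 0.00150). CTF18, of an alternative loader, passed lower in hyp/c-1 (−0.46, limma adjusted p = 0.0284), and no gene of the list did so when hyp/c-1 replicate 1 or 3 or any 1 WT library was left out. Of 12 tested genes whose proteins work on PCNA, 1 passed higher and 2 lower in each mutant, with medians of −0.11 and −0.05. POLD4, a small subunit of DNA polymerase delta, was the higher one, at 89.8 ± 7.42 TPM in hyp/c-1, 97.3 ± 11.3 TPM in hyp/hyp and 33.3 ± 1.79 TPM in WT (SD, n = 3 each; limma adjusted p = 1.50e-05 and 1.07e-05). The lower ones were the mutated ATXR5 and FAS2, a subunit of the histone chaperone CAF-1 (log2 difference −0.47 in hyp/c-1 and −0.45 in hyp/hyp, limma adjusted p = 0.0231 and 0.0272), and 1 gene instead of 2 passed lower when any 1 WT library was left out, and likewise without hyp/c-1 replicate 1 in hyp/c-1 and without hyp/hyp replicate 1 or 2 in hyp/hyp.

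Among 6 tested subunits of DNA polymerases alpha and epsilon, 3 passed lower in hyp/c-1 and 4 in hyp/hyp, and 1 passed higher in both, with medians of −0.37 and −0.42. The higher one was POL2A, the catalytic subunit of polymerase epsilon, at 5.01 ± 0.614 TPM in hyp/c-1, 4.19 ± 0.588 TPM in hyp/hyp and 1.88 ± 0.109 TPM in WT (SD, n = 3 each; limma adjusted p = 0.000333 and 0.00150). The polymerase alpha subunits POLA1 and POLA2 passed lower in both mutants, with log2 differences of −0.41 and −0.38 in hyp/c-1 and −0.42 and −0.53 in hyp/hyp. Of 9 tested origin licensing genes, which load the replicative helicase before replication, 2 passed lower in hyp/c-1 and 6 in hyp/hyp, and none passed higher in either, with medians of −0.33 and −0.41. MCM7, a helicase subunit, had a log2 difference of −0.44 in hyp/c-1 and −0.65 in hyp/hyp (limma adjusted p = 0.0388 and 0.00701). The counts of lower genes turned on single libraries. For licensing in hyp/c-1 the count was 0 after median-of-ratios scaling, 7 without hyp/c-1 replicate 3 and 0 or 1 when any other library was left out. In hyp/hyp it was 2 to 4 when any 1 library of hyp/hyp or WT was left out and 6 to 8 without a hyp/c-1 library. For the polymerases, leaving out a library of hyp/c-1 or WT gave 0 to 3 in hyp/c-1, and leaving out one of hyp/hyp or WT gave 2 or 3 in hyp/hyp. The summed licensing genes came to 41.6 to 54.3 TPM in hyp/c-1, 41.4 to 42.9 TPM in hyp/hyp and 56.6 to 60.1 TPM in WT.

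Most markers of dividing cells did not pass the test. The list held mitotic genes and CYCD3;1, a D-type cyclin of entry into the cell cycle. The B-type cyclin gene CYCB1;1 was placed on the DNA damage response list instead. It passed higher in both mutants (limma adjusted p = 3.27e-08 in hyp/c-1 and 4.10e-08 in hyp/hyp). Of the 9 tested genes on the dividing-cell list, 1 passed higher in hyp/c-1, and none passed in hyp/hyp. This was CYCD3;1 (log2 difference 0.68, limma adjusted p = 0.0133), and no mitotic gene of that list passed. The list medians were 0.34 in hyp/c-1 and 0.11 in hyp/hyp. The count in hyp/c-1 was 0 without WT replicate 2 and 1 or 2 when any other library was left out, and it was 4 when only those genotypes were fitted. All 11 genes of the list, summed, came to 27.6 to 29.0 TPM in hyp/c-1, 20.1 to 26.7 TPM in hyp/hyp and 20.7 to 23.3 TPM in WT. The 10 without CYCD3;1 summed to 20.5 to 21.3 TPM, 16.6 to 21.2 TPM and 16.8 to 18.5 TPM in the libraries of the same genotypes. Genes of leaf mesophyll, the main cell type of the labelled tissue, were abundant in every library. Their sum was 61900 to 78500 TPM in hyp/c-1, 56700 to 65200 TPM in hyp/hyp and 73900 to 76900 TPM in WT. Of these 8 genes, 1 passed higher in hyp/c-1 and 5 passed lower in hyp/hyp (list medians −0.17 and −0.42). Without hyp/c-1 replicate 3, 3 passed lower in hyp/c-1, and the 5 in hyp/hyp were 2 without WT replicate 1 and 3 without WT replicate 2. The 11 markers of meristem, flower, root and seed summed to 11.4 to 22.0 TPM in hyp/c-1, 8.27 to 14.2 TPM in hyp/hyp and 9.80 to 11.4 TPM in WT, with WUS, CLV3 and LFY at 0 in all libraries. Nearly all of that sum was the root gene PYK10, and the 10 others summed to 0.348 to 0.550 TPM in hyp/c-1, 0.515 to 0.872 TPM in hyp/hyp and 0.556 to 0.915 TPM in WT. The part of cell composition in the TSO2 values was not tested.

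The list of DNA damage response genes, whose rise in these mutants was known before it was drawn up and is therefore no independent support, had 11 of 13 tested genes higher in each mutant and none lower. Its median log2 difference was 2.47 in hyp/c-1 and 2.28 in hyp/hyp, so that of TSO2 lay above it. SMR7, an inhibitor of cyclin-dependent kinases, had 141 ± 15.6 TPM in hyp/c-1, 134 ± 2.39 TPM in hyp/hyp and 0.564 ± 0.331 TPM in WT (SD, n = 3 each), and PARP2, a poly(ADP-ribose) polymerase, had 66.9 ± 4.92, 64.2 ± 4.81 and 2.30 ± 0.349 TPM in the same genotypes. WEE1 and BARD1 were the tested members that did not pass, at −0.07 and −0.30 in hyp/c-1 and −0.08 and −0.30 in hyp/hyp. Between the mutants none of the genes of these lists passed.

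**Figure D5:**
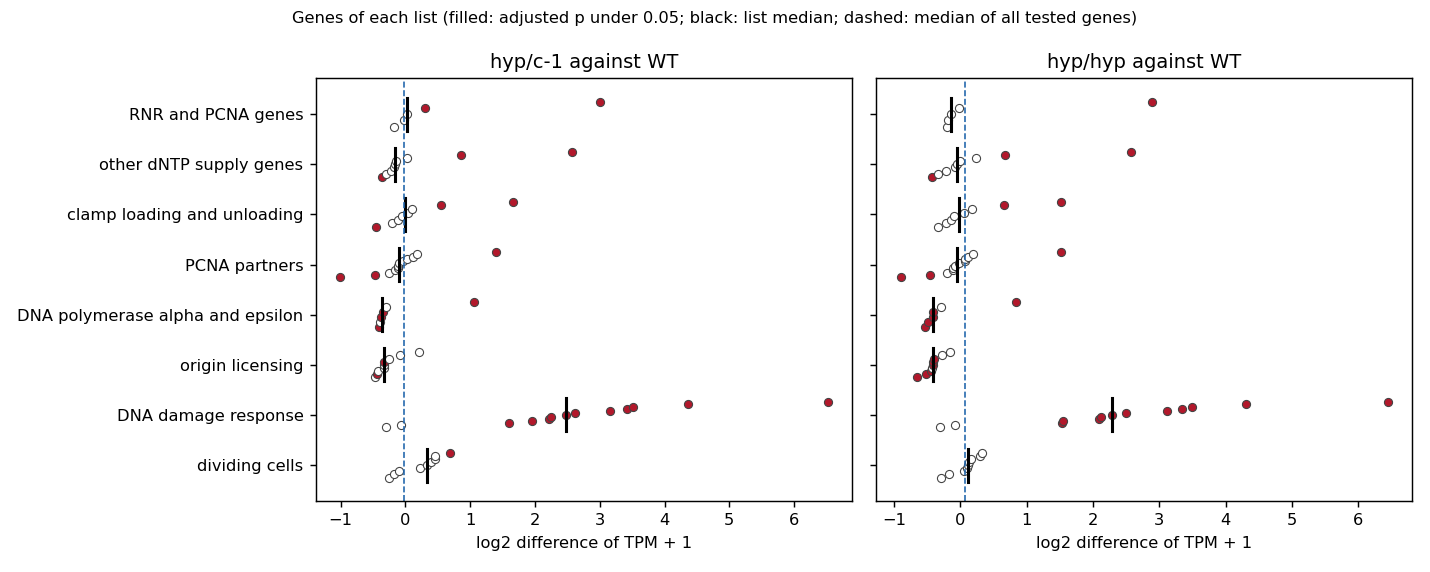
Log2 differences on the log2(TPM + 1) scale for the 5 members and for the genes of each list, in hyp/c-1 against WT and hyp/hyp against WT; each point is a gene, and filled points passed the test. DNA damage response genes extend furthest to higher values, with TSO2 at 3.00 and 2.89 and TK1A at 2.57 in both, and the medians of the licensing genes lie at −0.33 and −0.41. Black bars mark list medians and dashed lines the median of all genes tested.

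The genes most like each member over the 9 libraries, by Pearson's r of log2(TPM + 1), differed from member to member. For TSO2 they were the cyclin gene CYCB1;1 (r = 0.996), AT2G03965 (0.996) and the F-box gene AT5G07610 (0.996). After the genotype means were removed, r fell to 0.461, 0.638 and 0.640, so most of that likeness was the contrast of mutants and WT. CYCB1;1 itself stood at 11.5 ± 0.434 TPM in hyp/c-1, 11.1 ± 0.964 TPM in hyp/hyp and 0.403 ± 0.103 TPM in WT (SD, n = 3 each). For RNR1 they were AT5G16010 (0.960), AT4G20840 (0.958) and AT5G16810 (0.936), and for RNR2A they were AOP1 (0.972), FBH2 (0.956) and TBL41 (0.954). For PCNA1 the ribosomal protein genes AT2G37190 (0.952) and AT2G17360 (0.926) and the endomembrane gene AT2G24170 (0.931) came closest. For PCNA2 they were the photosystem I gene PSAE-2 (0.949), SCRM2 (0.946) and CER10 (0.944). For the first-ranked gene of the other members, r of the deviations was 0.879 for RNR1, 0.932 for RNR2A, 0.974 for PCNA1 and 0.959 for PCNA2. These genes were picked for a high r over the same 9 libraries. No member was among the 3 genes most like another.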

How the data were processed

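Leaf RNA was sequenced in 9 libraries, grouped by the genotype in the labels. The deposited table holds TPM made by the authors, each library summing to 1000000, although its headers speak of gene counts. The submitters' processing notes name fastp 0.20.1, HISAT2, DESeq2 1.26.0 and the TAIR10 build; the counting program and strand setting are not given in the sources used here. Multiplying TPM by gene span gave whole reads for 99.98% of 74723 low values (within 0.02 of a read). Names, gene models and sequences came from RefSeq TAIR10.1, which matched 27445 genes by locus.

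The test was limma 3.58.1 (R 4.3.3) on log2(TPM + 1) values (a mean per genotype, 9 libraries, 6 residual degrees of freedom, eBayes with trend), for genes averaging at least 1 TPM, with Benjamini-Hochberg adjustment over all 17682. This scale understates changes of low genes. Depth of 21289647 to 38766556 reads puts 3 reads in a gene of 2000 bp at 0.0825 to 0.149 TPM. Ratios used two-sided exact permutation tests. Scripts ran in Python 3.11.15 and were tested on simulated data. Alternatives were other pseudocounts, expression minima, scalings and fits, and leaving out each library. Same-numbered libraries did not pair (correlations of deviations from −0.272 to 0.10), so the main fit has no block. The members, lists and named genes (members, mutated genes, up to 3 passing genes per list with the largest difference, and the 3 genes most like each member) were chosen with earlier results of these data known. WEE1, BARD1 and neighbouring genes were added after their values were seen. Some genes of the dNTP supply list are not reported here by name.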

Additional observations from a re-analysis of the deposited data

How the results depend on the processing

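TSO2 passed higher in both mutants under every alternative tried, at log2 differences of 2.86 to 3.10 in hyp/c-1 and 2.75 to 2.99 in hyp/hyp. RNR2A in hyp/c-1 against WT did not pass after quantile normalization (0.29) or with the replicate block (0.30), and leaving out single libraries gave 0.29 to 0.33; between the mutants that range was 0.26 to 0.41. No other call of a member changed with the block. Among differences that did not pass, leaving out single libraries turned the sign of RNR2A in hyp/hyp (−0.11 to 0.041), of RNR1 (−0.016 to 0.0615) and PCNA1 (−0.27 to 0.21) in hyp/c-1, and between the mutants of PCNA1 (−0.13 to 0.35) and PCNA2 (−0.0675 to 0.093). The log2 ratio of PCNA1 to PCNA2 against WT ranged from −0.0008 to 0.35 for hyp/c-1 and from −0.033 to 0.15 for hyp/hyp, and from −0.071 to 0.28 between the mutants. The cause of these shifts was not tested. Over all genes, 3678, 3603 and 502 passed in the comparisons of hyp/hyp with WT, hyp/c-1 with WT and hyp/c-1 with hyp/hyp, and with the 2-fold minimum 506, 565 and 92. The replicate block gave 2750, 2798 and 0, the last with 3730 genes at an unadjusted limma p under 0.05. Between the mutants, 220 passed with no expression minimum and 0 with only those genotypes fitted (3255 unadjusted). Leaving out single libraries gave 1846 to 4539, 1988 to 3959 and 1 to 2863 genes, the last between 1 without hyp/hyp replicate 2 and 2863 without hyp/c-1 replicate 1. PCNA1 held the lowest read count of the members in each genotype, at 246 to 407 reads in hyp/c-1, 191 to 251 in hyp/hyp and 283 to 316 in WT libraries. The part of depth in its wide interval was not tested. List counts were recomputed under each alternative, which was chosen after seeing the data.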
